A study of Saccharomyces cerevisiae with 4 samples.

Results

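The genes described here encode the machinery that copies the chromosomes of budding yeast, Saccharomyces cerevisiae: the proteins that mark and license replication origins, those that fire them, and the polymerases, clamp, clamp loaders, ligase, nucleases and topoisomerases of the moving fork. The list holds 52 genes, taken by name and not by any measured value, out of 5656 genes that the array reads by a probe set assigned to them alone. Each gene was read from the probe set assigned to it alone, the brightest where there were several, and the genes are grouped by protein complex. RNA came from a mutant labelled hst3hst4 (strain YCB600) and from wild-type cells (strain YCB617), both of the FY background and both grown in the rich medium YPD. Independent cultures, 2 for each strain, were hybridised to 4 one-colour arrays, and the comparison asks how transcript levels differ between the strains. HST3 and HST4 encode NAD-dependent deacetylases that act on lysine 56 of histone H3, a mark carried by newly made histones that are placed behind the fork.

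An origin is bound by the origin recognition complex (ORC), which with Cdc6 loads the ring-shaped MCM helicase in G1. In S phase the kinase Cdc7-Dbf4 acts on the loaded ring and the cyclin-dependent kinase on Sld2 and Sld3, Cdc45 and GINS join the helicase, and the forks leave. Polymerase alpha-primase lays the primers, polymerase epsilon extends the leading strand and polymerase delta the lagging strand, held on DNA by the sliding clamp PCNA, while replication protein A (RPA) covers single-stranded DNA.

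The arrays had been scaled to a common mean, with median signals per array from 37.5 to 41.2, so every value is relative to the average probe set. The 3' to 5' signal ratio of the TATA-binding protein control was 3.70 and 3.82 in the mutant and 4.64 and 5.20 in the wild type. The same ratio went the other way for SRB4, with 2.34 and 1.90 against 1.87 and 1.63, and overlapped for the actin gene ACT1, with 1.73 and 1.78 against 1.70 and 1.88; the part of RNA integrity in the results was not tested. The HST3 signal was 0.4 and 0.5 for the label hst3hst4, against 13.7 and 25.3 for the label wild-type. HST4 went the other way, with 38 and 39.3 against 3.6 and 0.9, so its signal goes against the label; where its probes lie relative to any deleted part is not given in the sources used here. Directions below are therefore directions between labels, and values written as one pair against another give hst3hst4 replicates 1 and 2 first and wild-type replicates 1 and 2 second. Signals on a whole culture cannot tell a change in RNA per cell from a change in the share of cells in S phase or G1.

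No replication gene passed the test between the strains. Of the 52 genes, 50 were bright enough to be tested, and 0 of them had an adjusted p under 0.05 in limma, against 2.73% of the 5271 genes tested and 2.64% of all 7420 probe sets tested. At an unadjusted p under 0.05 there were 7 replication genes, 14% of those tested, where the share among all genes was 19.2%. The 3 higher ones (6%, background 10.2%) were CDC45, DPB2 and RFA3, and the 4 lower ones (8%, background 8.97%) were POL2, RFC5, RFC2 and TOP1. The lowest adjusted p of any of them was 0.0895, for POL2.

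As a group the genes lay around zero. Of the 50 tested, 25 had a log2 fold change above 0 and 25 below 0, with a median of 0.02, beside -0.01 over all genes tested. The middle part of the distribution, from the lower to the upper quartile, ran from -0.22 to 0.23, against -0.25 to 0.24 for all genes. The tested replication genes ran from -0.83 to 0.87, a range that rests on far fewer genes than that of all genes. On the log2(signal + 3.3) scale 0 of the 50 passed 2-fold, where 218 of all genes, 4.14%, did. In a list of 50 that share amounts to few genes. SLD2, a gene of the list too dim to be tested and not counted here, stood at 1.58. With the arrays scaled on the bacterial and phage hybridisation controls instead, which put the median of all genes at 0.34, 44 of the 50 stood above zero, and only MCM6, POL2, POL31, RFC2, RFC5 and TOP1 stayed below. On that scale RFC2 stood at -0.16 and TOP1 at -0.13. Values below zero named for other genes in what follows are therefore below zero only relative to the average probe set.

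**Figure D1:**
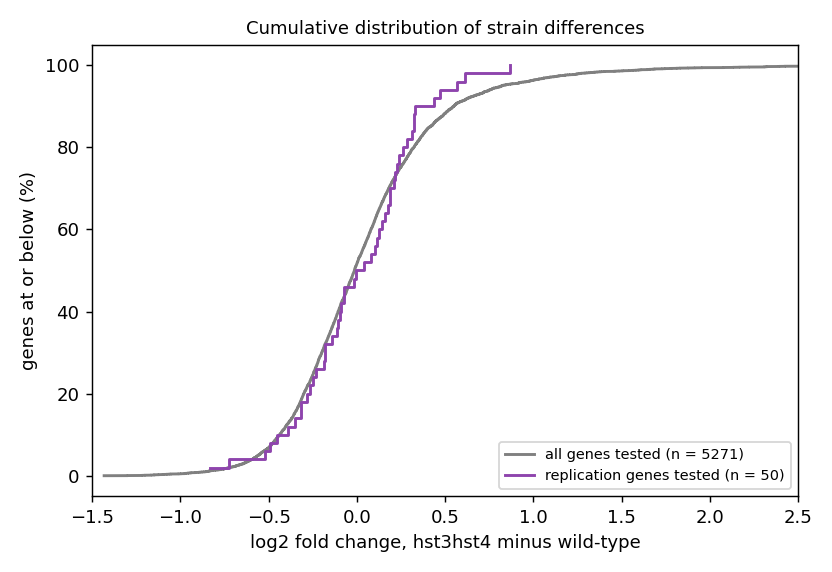
Cumulative share of genes (y axis, percent) at or below a given log2 fold change of hst3hst4 over wild-type (x axis, log2 scale), for the 50 replication genes tested and for all 5271 genes tested. The curves cross near zero, with medians of 0.02 and -0.01. The x axis ends before the highest genes of the whole set, and the highest tested replication gene stands at 0.87.

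How far a true change can still hide is given by the 95% intervals of the fit. For 40 of the 50 genes the interval lay within a 2-fold change either way, 80% against 76.3% of all genes, and for 3 of them it lay within a 1.5-fold change, 6% against 23% of all genes. The genes whose interval reached 2-fold were MCM2, MCM6, MCM10, CDC45, POL2, DPB2, POL31, POL32, RFC5 and CDC9. The standard errors of single genes ran from 0.15 to 0.41 on the log2 scale. Changes below about 1.5-fold could therefore not be resolved for most of these genes.

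**Figure D2:**
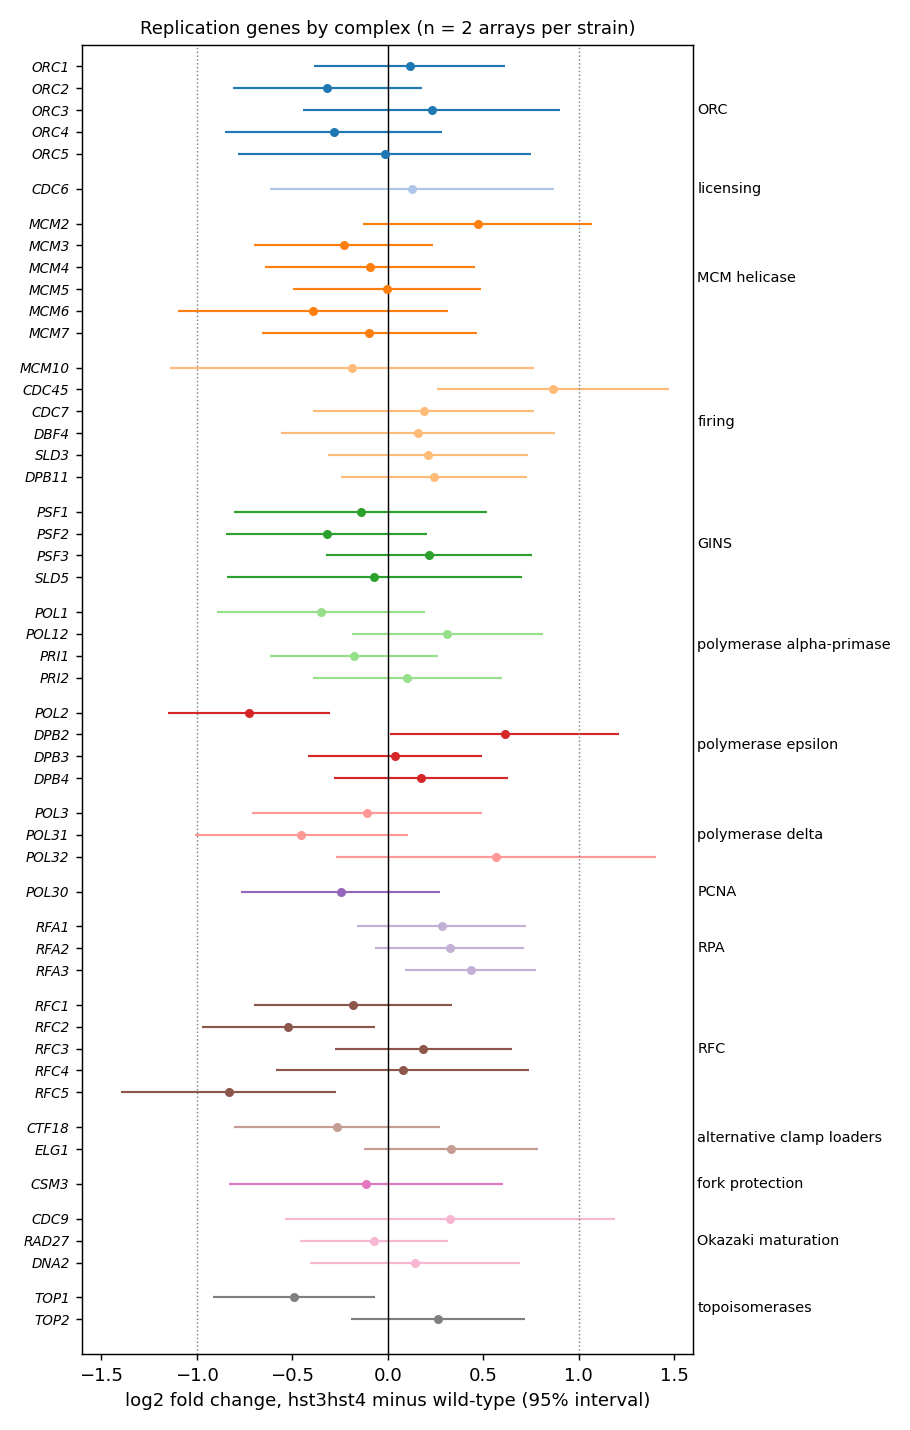
Log2 fold change of hst3hst4 over wild-type for the 50 tested replication genes, ordered by complex, with points for the estimate and bars for the 95% interval of the limma fit (2 arrays per strain). Dotted lines mark a 2-fold change; no point lies beyond them, and the intervals of CDC45, DPB2, RFA3, POL2, RFC5, RFC2 and TOP1 do not reach zero.

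No gene of origin binding and helicase loading had an unadjusted p under 0.05. Of the ORC genes, which encode the origin-binding subunits, 5 of 6 were tested, 2 above and 3 below zero, with a median log2 fold change of -0.02 and values from -0.32 for ORC2 to 0.23 for ORC3; the lowest adjusted p was 0.448. ORC2 had signals of 35.7 and 41.5 in hst3hst4 cells against 44 and 54 in wild-type cells, and was the only ORC gene whose arrays did not overlap between the strains. ORC6 was too dim to be tested: its signals were 2.6 and 7.8 against 5.3 and 6.4, and the arrays overlapped. CDC6, the ATPase that loads the helicase with ORC, had 16.6 and 20.2 against 12.7 and 21.2, a log2 fold change of 0.13 (95% interval -0.62 to 0.87).

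The 6 MCM2 to MCM7 genes, which encode the ring of the replicative helicase, did not share a sign. MCM2 stood above zero, at 0.47 (SE 0.26, adjusted p = 0.353), with signals of 52.1 and 70.7 in hst3hst4 cells against 34.7 and 52.8 in wild-type cells, which overlap. The other 5 ran from -0.39 for MCM6 to 0.00 for MCM5, and the median of the complex was -0.10. MCM5 gave near-equal signals on all 4 arrays, 34.3 and 34 against 32.5 and 36.1. MCM3 was the only gene of the ring without overlap, at 77.8 and 75.9 against 78.3 and 105.1, although its highest hst3hst4 array and its lowest wild-type array were almost equal. With single arrays left out MCM2 ran from 0.19, without wild-type replicate 1, to 0.75, without wild-type replicate 2. MCM4, MCM5 and MCM7 each crossed zero when some array was left out, and the median of the ring was -0.23 without wild-type replicate 1.

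Among the factors that activate the loaded helicase, CDC45 had the highest value of the 50 genes tested. CDC45 (YLR103C, chromosome XII, 343989 to 345941 in the R64 assembly) encodes the protein that travels with the MCM ring and GINS as part of the active helicase. Its signals were 48.4 and 47.2 in hst3hst4 cells against 19.3 and 31.5 in wild-type cells. The hst3hst4 cultures lay close together and above both wild-type cultures, which themselves differed by 0.62 on the log2 scale. The log2 fold change was 0.87 (SE 0.26, 95% interval 0.26 to 1.47), a 1.82-fold difference with an adjusted p of 0.132. Leaving out wild-type replicate 1 brought it to 0.55. Leaving out wild-type replicate 2 instead brought it to 1.18. Scaled on the hybridisation controls it stood at 1.22 (adjusted p = 0.00342).

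The GINS genes, whose products complete that helicase, lay on both sides of zero. PSF1, PSF2 and SLD5 were below zero and PSF3 above it, from -0.32 for PSF2 to 0.22 for PSF3, with a median of -0.11 and a lowest adjusted p of 0.473. PSF2 was the only one whose arrays did not overlap, with 25.6 and 30.1 against 32.8 and 38.3. Of the other firing factors, CDC7 and DBF4, the kinase and its regulatory subunit, stood at 0.19 and 0.16. SLD3, which recruits Cdc45, stood at 0.21, and DPB11, the scaffold that binds phosphorylated Sld2 and Sld3, at 0.24. MCM10, which acts in helicase activation, had a log2 fold change of -0.19 with the widest interval of all (-1.14 to 0.77), from signals of 8.3 and 12.4 against 17.2 and 8.2.

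SLD2 (YKL108W, chromosome XI, 234426 to 235787), a target of the cyclin-dependent kinase in origin firing, was below the filter on dim probe sets. Its signals were 9.3 and 10.8 in hst3hst4 cells against 1.3 and 1 in wild-type cells, so the groups did not overlap and the wild-type values lay under the pseudocount of 3.3. Fitted with no filter, its log2 fold change was 1.58 (SE 0.28, adjusted p = 0.0968). Signals this low are noisy in this kind of processing, and no detection calls were at hand.

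**Figure D3:**
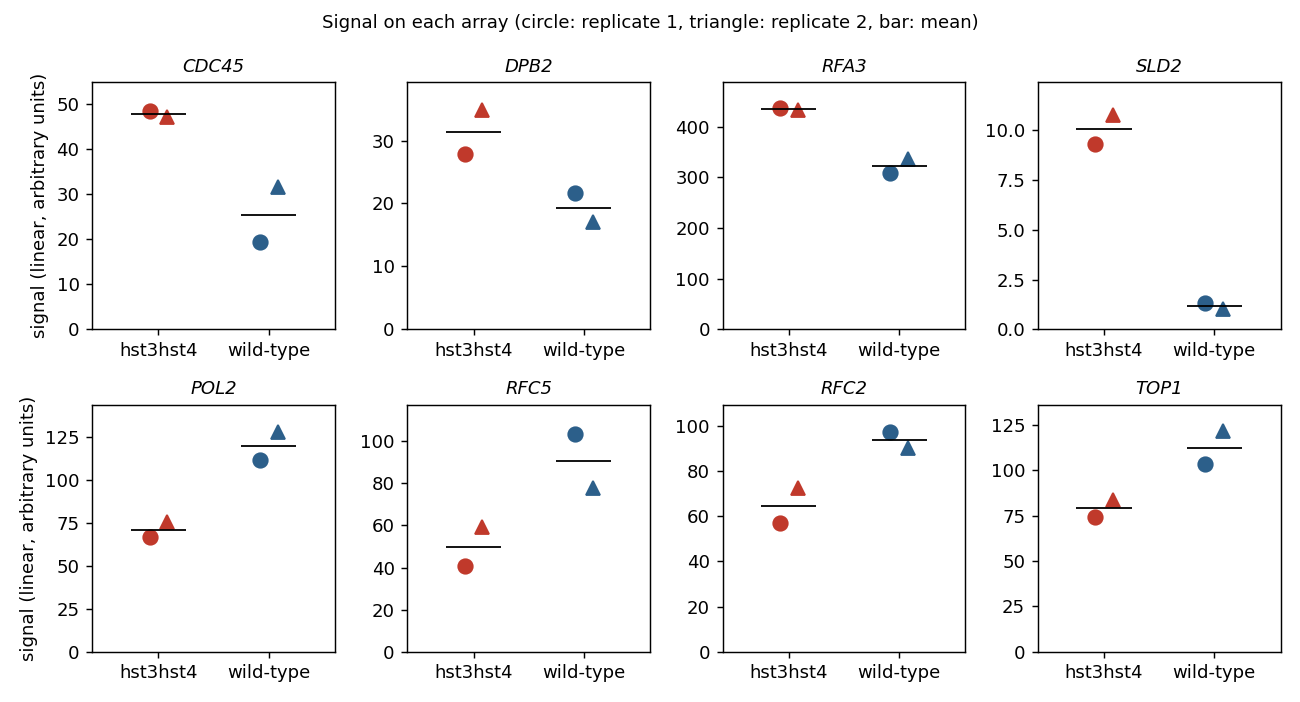
Signal (y axis, linear arbitrary units, starting at 0) on each array for the 7 tested genes with an unadjusted p under 0.05 and for SLD2, which was too dim to be tested; circles are replicate 1, triangles replicate 2 and bars the mean of each strain. In all 8 panels the arrays of the strains do not overlap; the upper row is higher on the hst3hst4 arrays and the lower row lower.

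The polymerases held the widest contrast within a single complex. POL2 (YNL262W, chromosome XIV, 148212 to 154880) encodes the catalytic subunit of polymerase epsilon. Its signals were 66.4 and 75.2 in hst3hst4 cells against 111.3 and 127.4 in wild-type cells. All wild-type values were well above all hst3hst4 values, and the strain difference was larger than the spread between cultures of a strain. The log2 fold change was -0.73 (SE 0.18, 95% interval -1.15 to -0.30, adjusted p = 0.0895). With single arrays left out it ran from -0.82, without wild-type replicate 1, to -0.63, without wild-type replicate 2. Scaled on the hybridisation controls it stood at -0.37 (adjusted p = 0.412).

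DPB2 (YPR175W, chromosome XVI, 888974 to 891043), the essential second subunit of the same polymerase, lay on the other side of zero. It had signals of 27.8 and 34.8 in hst3hst4 cells against 21.7 and 17 in wild-type cells, with no overlap, and a log2 fold change of 0.61 (SE 0.26, 95% interval 0.01 to 1.21, adjusted p = 0.238). DPB3 and DPB4, the histone-fold subunits, were at 0.04 and 0.17. The 4 genes of polymerase epsilon thus spanned 1.34 on the log2 scale, the widest range of any complex in the list; the difference between POL2 and DPB2 was not tested.

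POL2 is the only gene of the list with more than 1 probe set of its own, and the other probe sets did not enter the value above. There were 9 in all, 4 of them too dim to be tested, with signals between 0.4 and 8.4. The untested ones did not share a direction. One had 7.9 and 4.7 against 3 and 0.7, higher in hst3hst4 without overlap. Another had 0.4 and 0.5 against 0.8 and 0.7, lower without overlap. The rest overlapped, with 0.6 and 8.4 against 1.3 and 6.2, and 1.1 and 4.3 against 1.4 and 1.8. The 5 tested ones all had a log2 fold change below 0, from -0.43 to -0.78. In 4 of the 5 both hst3hst4 arrays lay below both wild-type arrays; the third brightest, with 25.1 and 14.1 against 31.1 and 22.7, was the exception. Apart from the brightest, the lowest adjusted p was 0.253, for the second brightest at 21.9 and 31.6 against 33.2 and 67.9. These probe sets are assigned to the same gene by the platform annotation. They were read in the same 4 RNA samples and are not replicates of the strains.

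**Figure D4:**
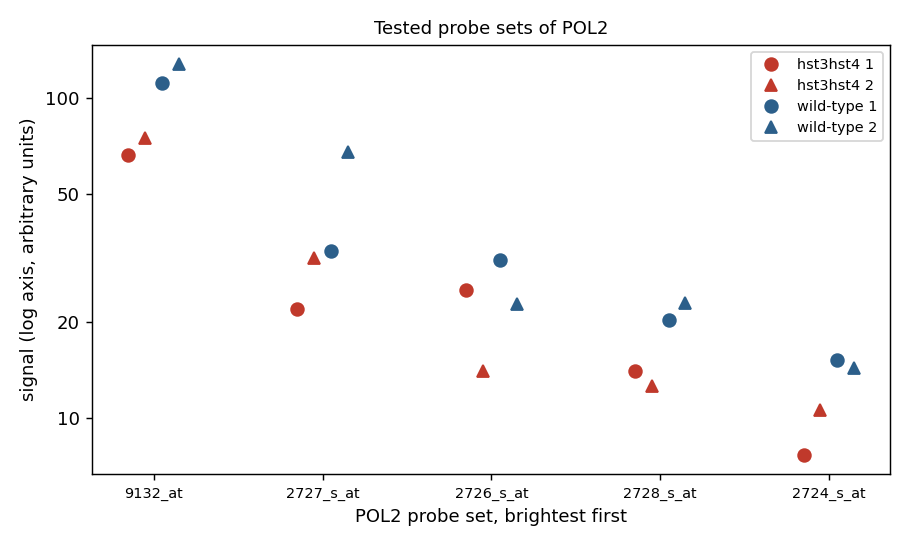
Signal (y axis, log scale, arbitrary units) of the 5 tested POL2 probe sets (x axis, brightest first) on each of the 4 arrays, in red for hst3hst4 and blue for wild-type, with circles for replicate 1 and triangles for replicate 2. The blue points lie above the red ones in every probe set except the third from the left, where a red and a blue point cross.

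Polymerase alpha-primase, which starts every new strand, was split. POL12, its B subunit, stood at 0.31 and PRI2, the large primase subunit, at 0.10, while PRI1, the catalytic primase subunit, stood at -0.18 and POL1, the catalytic polymerase, at -0.35. POL1 had signals of 134.3 and 129.8 against 133.1 and 214.8, so the arrays overlapped and the value rested on wild-type replicate 2. Its log2 fold change was -0.01 without that array and -0.69 without wild-type replicate 1.

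In polymerase delta the catalytic subunit POL3 was at -0.11, POL31 at -0.45 and POL32 at 0.57, with a lowest adjusted p of 0.339. POL31, the essential second subunit, had 25.8 and 37.4 against 41.5 and 46.2, and POL32, a non-essential subunit that also binds PCNA, had 12.2 and 12.5 against 8.1 and 6.5. Neither gene's arrays overlapped between the strains, in opposite directions. POL30, which encodes PCNA, had 188 and 228.3 in hst3hst4 cells against 200.4 and 302.7 in wild-type cells, which overlap, and a log2 fold change of -0.25 (95% interval -0.77 to 0.27). That value rested on single wild-type arrays: it was -0.54 with replicate 1 left out and 0.047 with replicate 2 left out.

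The clamp loader RFC opens PCNA and sets it on primed DNA. Its large subunit Rfc1 is exchanged for Ctf18, Elg1 or Rad24 in the alternative loaders, while Rfc2 to Rfc5 are shared by all of them. RFC5 (YBR087W, chromosome II, 423765 to 424829) had the lowest value of the 50 genes tested, with signals of 40.5 and 59.2 in hst3hst4 cells against 103.6 and 78 in wild-type cells. The arrays did not overlap, but cultures of a strain differed by 0.51 and by 0.39 on the log2 scale. Its log2 fold change was -0.83 (SE 0.24, 95% interval -1.40 to -0.27, adjusted p = 0.123). Without wild-type replicate 2 it was -1.03, and without hst3hst4 replicate 1 it was -0.58. Scaled on the hybridisation controls it stood at -0.47 (adjusted p = 0.292).

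RFC2 was lower as well, with 57.1 and 72.3 against 97.4 and 90 and a log2 fold change of -0.52 (SE 0.19, adjusted p = 0.198). The remaining shared subunits were not: RFC3 stood at 0.19 and RFC4 at 0.08, both with overlapping arrays. The large subunit RFC1 had signals of 54.7 and 80.8 against 75.9 and 75.9, a log2 fold change of -0.18 (95% interval -0.70 to 0.34). Of the subunits that replace it, CTF18, which acts in sister chromatid cohesion, stood at -0.27 with 22.7 and 27.1 against 30.1 and 31. ELG1, which takes PCNA off DNA, stood at 0.33 with 47.9 and 53.2 against 39.9 and 39. The median of the 5 RFC genes was -0.18, but 0.09 without hst3hst4 replicate 1 and -0.45 without hst3hst4 replicate 2.

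RPA was the only complex of at least 3 tested genes in which every gene had the same sign and no arrays overlapped. RFA1, the large subunit that makes most of the DNA contacts, had 223.9 and 242.9 in hst3hst4 cells against 164.2 and 222.7 in wild-type cells. RFA2, the subunit phosphorylated by checkpoint kinases, had 248.2 and 304.8 against 216.2 and 222.2. RFA3, the smallest subunit, had 436.9 and 434 against 307.7 and 335.6. All hst3hst4 values were above all wild-type values, though for RFA1 the gap to wild-type replicate 2 was slight.

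The log2 fold changes of RPA were 0.28 for RFA1, 0.32 for RFA2 and 0.43 for RFA3 (SE 0.19, 0.17 and 0.15), or 1.22-fold, 1.25-fold and 1.35-fold. None passed, with adjusted p-values of 0.453, 0.332 and 0.167. All 3 stayed above zero under quantile normalization, under centring on the array median and with any array left out, where RFA1 came down to 0.07 without wild-type replicate 1. Centring and scaling on the hybridisation controls each move all genes by the same amount. The control scaling moves them up, so it could not bring a value below zero. Scaled on the hybridisation controls, RFA2 and RFA3 passed (adjusted p = 0.0411 and 0.00918), a scale on which the median of all genes tested stood at 0.34.

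In lagging-strand maturation the values of CDC9 depended on single wild-type cultures. CDC9, the DNA ligase that joins Okazaki fragments, had 95 and 96 on the hst3hst4 arrays, near equal, and 47 and 120.6 on the wild-type arrays, 1 below and 1 above them. Its log2 fold change of 0.32 (95% interval -0.54 to 1.19) became -0.33 when wild-type replicate 1 was left out. It became 0.97 when wild-type replicate 2 was left out instead. RAD27, the flap endonuclease, gave 107.2 and 106.2 against 109.6 and 115.2, a log2 fold change of -0.07 (95% interval -0.46 to 0.32), which makes it one of the more tightly bounded genes of the list. DNA2, a nuclease and helicase that trims long flaps, stood at 0.14, and CSM3, of the fork protection complex, at -0.11; both had overlapping arrays.

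The topoisomerases, which relieve the twist ahead of the fork, lay on opposite sides. TOP1 (YOL006C, chromosome XV, 313078 to 315387) had 74.3 and 83.7 in hst3hst4 cells against 103.7 and 121.4 in wild-type cells, with no overlap, and a log2 fold change of -0.49 (SE 0.18, 95% interval -0.92 to -0.07, adjusted p = 0.198). TOP2, the enzyme that also separates the finished chromosomes, had 88.9 and 112.9 against 77.1 and 89.2 and a log2 fold change of 0.26 (adjusted p = 0.494), with arrays that just overlapped.

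Counted over the list, the arrays of the strains did not overlap for 20 of the 50 tested genes, 40% against 52.4% of all genes. Of these 9 were higher (18%, background 25.1%) and 11 lower (22%, background 27.4%) on the hst3hst4 arrays. The strain difference was larger than the difference between the cultures within either strain for 16 of 50 genes, 32%, against 39.3% of all genes. By each count the share was below that of all genes. The counts rest on the same genes and the same 4 arrays, and the gap was not tested.

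The wild-type cultures were themselves apart on this list. In 36 of 50 genes, 72%, wild-type replicate 2 was above wild-type replicate 1, against 54.7% of all genes, and the median difference was 0.14 on the log2 scale, against 0.04. The hst3hst4 cultures differed by a median of 0.19 in favour of replicate 2, against 0.10 over all genes. CDC9 had the highest difference between wild-type cultures, 1.30, followed by ORC5 at 0.85. Over the list the median absolute difference was 0.22 between wild-type cultures and 0.23 between strains, against 0.23 and 0.25 over all genes. A culture difference is taken between single arrays and a strain difference between means of 2 arrays. Their sizes are therefore not like for like.

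**Figure D5:**
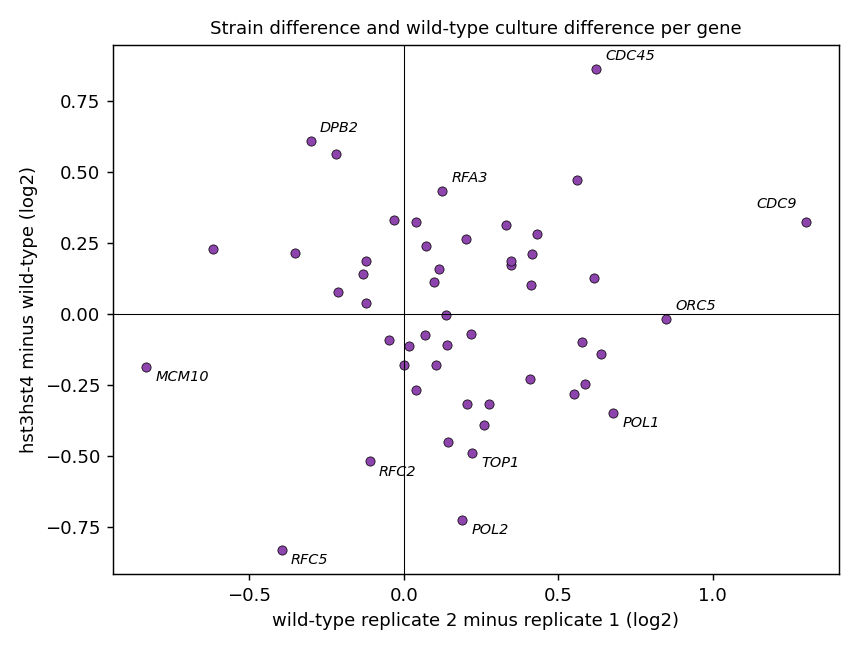
Strain difference (y axis, log2 fold change of hst3hst4 over wild-type) against the difference between the wild-type cultures (x axis, log2 of replicate 2 over replicate 1) for each of the 50 tested replication genes, with 11 genes named. Most points lie right of zero on the x axis (36 of 50). They run from -0.83 to 1.30 along the x axis and from -0.83 to 0.87 along the y axis.

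The genes lie on 14 chromosomes, and 2 pairs of them are neighbours in the R64 annotation. RFC5 and POL30, the clamp loader subunit and the clamp, face each other on chromosome II with 160 bp between them, at log2 fold changes of -0.83 and -0.25. POL2 and ORC5 follow each other on chromosome XIV with 219 bp between them, at -0.73 and -0.02.

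Replication genes outside the list are given for description only, as they were chosen with earlier results of these data known. Of 18 such genes 17 were tested and 0 passed, against 2.73% of all genes, and 2 had an unadjusted p under 0.05, 11.8% against 19.2% of all genes. The list had a median log2 fold change of 0.07, 9 above and 8 below zero. ECO1, the acetyltransferase that makes cohesin hold sister chromatids during S phase, had 27.9 and 25.7 against 14.2 and 15.8, a log2 fold change of 0.72 (SE 0.26, adjusted p = 0.185). RNH203, a subunit of RNase H2, had 188 and 234.9 against 130.9 and 137.8, a log2 fold change of 0.63 (SE 0.18, adjusted p = 0.115). In both genes the hst3hst4 arrays lay above the wild-type arrays without overlap.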

How the data were processed

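The authors deposited 1 intensity per probe set and array, on a linear scale, from one-colour Affymetrix arrays. GCOS 1.4 and MAS5 (version not given) are named in the submitters' processing notes. Per the labels' protocols, oligo-dT priming and 1 round of amplification were used, so signals depend on RNA integrity. The trimmed mean was 150.2 on every array. Gene names came from the platform annotation and RefSeq's table of R64, which also gave the positions; the 60 control probe sets and probe sets with several genes were not used for genes.

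Signals were taken as log2(signal + 3.3), 3.3 being the 10th percentile, which understates changes of dim genes. The dimmest 20% of probe sets (mean signal below about 8.97) were left out, and 7420 of 9275 were fitted in limma 3.58.1 (R 4.3.3) with lmFit and eBayes with trend, two-sided, with Benjamini-Hochberg adjustment over all of them at 0.05; the fit was tested on simulated data. The design states independent cultures, so p-values cover the spread between cultures. An exact permutation test of 2 arrays against 2 cannot go below p = 0.333 and was not used. Every gene of the list is named by its value or its complex, with HST3 and HST4 as the label check and the other replication genes with an unadjusted p under 0.05. The genes, lists and alternatives were chosen with earlier results of these data known. Same-numbered cultures did not deviate together (r = -0.04 across probe sets). Promoter motifs and sequences were not analysed here.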

Additional observations from a re-analysis of the deposited data

How the results depend on the processing

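The count of 0 replication genes called held under quantile normalization, median centring, a pseudocount of 1 or 12.9, no filter, a 40% filter, no trend, 1 probe set per gene and the replicate block (lowest adjusted p with the block 0.0703). With arrays left out in turn it ran from 0 to 3: POL1 and POL2 passed without wild-type replicate 1, and CDC45, RFC5 and CDC9 without wild-type replicate 2. The median log2 fold change of the list ran from -0.088 to 0.14 over these leave-outs, the highest without hst3hst4 replicate 1. The mean log2 difference of the 9 hybridisation controls, mutant minus wild-type, was -0.36. Scaling on them called 5 of the 50 replication genes tested (MCM2, CDC45, DPB2, RFA2 and RFA3) and 2 of the other replication genes. It moved the list's median to 0.38. In all it called 1186 of the 7420 probe sets tested, 1163 higher and 23 lower, where the split was 156 higher and 40 lower. At an unadjusted p under 0.05 in limma it gave 20% of the list, against 27.1% of all genes. Relative to the median of all genes the list then stood at 0.03, as before. The 196 probe sets called in all became 36 with no filter, 38 without the trend, 343 with the replicate block, which the labels do not back as a pairing, and 4 to 865 with arrays left out; the cause was not tested. Apart from the scaling on controls, 31 of the 50 genes kept their sign under every alternative, 16 above and 15 below zero. The filters, the trend, 1 probe set per gene and the replicate block leave each log2 fold change as it was. A sign could therefore change only under another normalization or pseudocount or with an array left out. With the scaling on controls 22 did, 16 above and 6 below zero. That scaling moves every gene up, so genes above zero had to stay there. Those that stayed below zero were MCM6, POL2, POL31, RFC2, RFC5 and TOP1. The number of arrays and the low signals of SLD2 and ORC6 limit what can be resolved.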
